A study of Mus musculus with 9 samples.

Results

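Ribosome biogenesis and nucleolar genes were examined as a group of 34 named genes, of which 33 had at least 1 probe set that the platform's gene table assigns to that gene alone. These 33 genes were covered by 70 of the 45101 probe sets of the array, and all 33 passed the filter on low signal, out of 18193 genes with such a probe set and 11671 genes tested in all. Mat2a, the remaining gene, had no such probe set and was not analysed here. The study compared normal mouse thymus with tumors of the thymus and with tumors labelled XIST-resistant, XIST being the noncoding RNA that shuts down one X chromosome in female cells. Total RNA was hybridised to Affymetrix Mouse430_2 arrays, with 3 arrays in each of the 3 groups. Values are MAS5 signals in arbitrary units, in which each probe set has its own scale, so a signal can be compared between arrays but not between genes. No source used here gives genotype, strain, age or sex of the animals, the way the tumors arose, or the way XIST was expressed and resistance was reached. Whether arrays of one group hold RNA of different animals is not stated in the labels either. The p-values therefore reflect the spread among arrays, part or all of which may be technical.

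Ribosomes are assembled in the nucleolus. RNA polymerase I transcribes the ribosomal RNA precursor there, small nucleolar ribonucleoproteins (snoRNPs) methylate and pseudouridylate it, and a series of processing factors cleaves it and assembles it into the small and the large subunit. Many genes of this pathway, and of the polyamine and pyrimidine synthesis that accompanies growth, are known targets of the transcription factor MYC, and immature thymocytes pass through a phase of rapid growth and division.

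The arrays fell into 2 sets by their poly-A spike-in control rows. The mean signal of these rows was 2.01 to 2.95 in normal thymus 1, tumor 1 and resistant tumors 1 and 2, and 141 to 237 in the other 5 arrays. Each set held all 3 groups. Median signals were 23.6 to 25.8 in the arrays without spike-in signal and 13.9 to 17.8 in those with it. The ratio of the 3' to the 5' probe set of Actb, a sign of RNA quality, was 1.63 to 1.98 in 7 arrays, 2.64 in resistant tumor 3 and 3.16 in tumor 2, and its part in the results was not tested. With 3 arrays per group, precision is limited by that number.

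Most of the 33 ribosome biogenesis genes were higher in both kinds of tumor than in normal thymus. These genes were chosen with earlier results of these data known. Lists of other genes of the pathway, given further below, had smaller median changes in tumors. In tumors 29 of the 33 genes rose and 1 fell (limma, adjusted p under 0.05), against 23.3% higher and 19.1% lower among all 11671 genes tested. In resistant tumors 29 of 33 also rose and 1 fell, against 23.1% and 20.2% of all genes. The median log2 change of the 33 genes was 0.88 in tumors and 0.94 in resistant tumors, beside 0.05 and 0.06 over all genes tested. Both comparisons use the same normal arrays, and in bulk RNA a different mix of cells cannot be told apart from a different amount of RNA per cell. The mean log2 signal of the 33 genes was 8.21 to 8.31 in the normal arrays, 8.96 to 9.16 in tumors and 9.10 to 9.13 in resistant tumors, so the normal arrays lay below every tumor array. Of the 33 genes, 29 were higher and 1 lower in tumors without overlap of the 3 normal and 3 tumor arrays. The counts were the same for resistant tumors. These were the 30 genes called, so overlap and calls are not independent. Among all genes the groups did not overlap, with the tumors higher, in 30.1%, and with the tumors lower in 25.2%, and for resistant tumors these shares were 28.9% and 25.7%.

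How many of these genes were called depended on the scaling of the arrays. After the array medians were set equal, 9 of 33 genes rose and 0 fell in tumors, and 5 rose and 0 fell in resistant tumors. That scaling also cut the share of all genes called higher to 11.1% in tumors and 7.52% in resistant tumors and the share called lower to 8.52% and 9.9%. It shifted every gene alike, by 0.19 on the log2 scale in tumors, -0.06 in resistant tumors and -0.25 between the tumor groups, and took the median change of all genes in tumors to 0.24. The median of the 33 minus that of all genes, 0.83 in tumors and 0.88 in resistant tumors, cannot change under such a shift. When the model held a term for the spike-in sets beside equal medians, 31 rose and 1 fell in both comparisons. All genes were then called higher in 41.1% and lower in 18.7% of cases in tumors, and in 38% and 20% in resistant tumors.

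**Figure D1:**
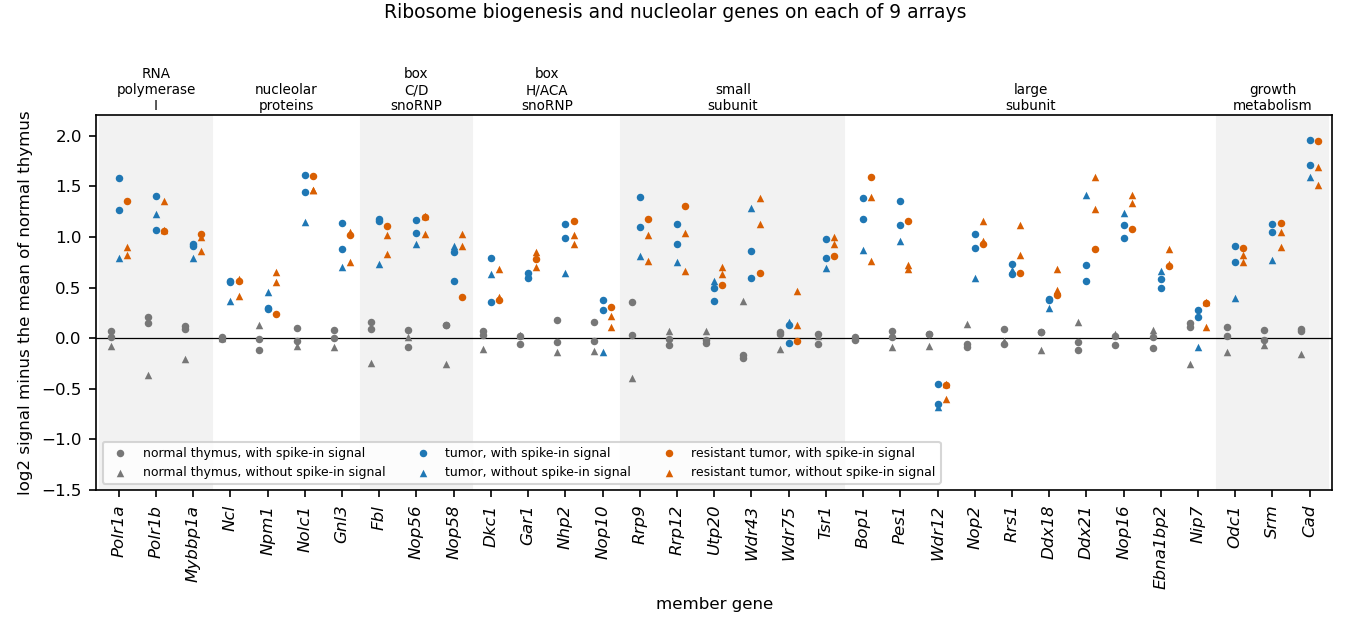
Log2 signal of each of the 33 genes on each of the 9 arrays, minus the mean of the 3 normal thymus arrays; the vertical axis is in log2 units, the genes are grouped by role, and triangles mark arrays without poly-A spike-in signal. The tumor and resistant tumor points lie above the normal points for 29 genes and below them for Wdr12, and they overlap with the normal points for Nop10, Wdr75 and Nip7.

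The sequence around the start of transcription was looked up for these genes because they moved together and because MYC is known to bind the E-box CACGTG. The RefSeq promoter windows of assembly GRCm38.p6, 250 bases before to 50 after each start, were matched by symbol to 27 of the 33 genes, and those of Bop1, Fbl, Npm1, Rrp12, Rrs1 and Srm were not matched. CACGTG, a palindrome that reads alike on both strands, stood in the windows of 6 of the 27 genes (22.2%). It stood in those of 11.7% of the 9431 tested genes with a window and 8.09% of all 27025 genes in the table. The share of 22.2% rests on 6 genes, its difference from the other shares was not tested, and binding of MYC was not measured. The median number of CpG dinucleotides per window was 21 in the 29 windows of these genes and 20 in the 12099 windows of all tested genes. Relative to the start used in that table, the motif is before it in Nop2 and after it in the other genes. The 6 sites are shown with the motif in capitals.
Nop2, chr6:125131796-125131855, plus strand: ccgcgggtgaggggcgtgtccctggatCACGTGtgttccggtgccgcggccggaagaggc
Utp20, chr10:88826765-88826789, minus strand: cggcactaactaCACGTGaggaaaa
Pes1, chr11:3963965-3963994, plus strand: ccctaggcagggCACGTGcgggaggaagta
Mybbp1a, chr11:72441355-72441376, plus strand: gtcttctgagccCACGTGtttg
Tsr1, chr11:74898092-74898121, plus strand: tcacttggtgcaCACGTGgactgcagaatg
Wdr43, chr17:71616220-71616249, plus strand: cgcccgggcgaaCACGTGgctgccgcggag
All 6 of these genes rose in both kinds of tumor, as did 23 genes without the motif in their window or without a window. For comparison, the 100 bases before the start are shown for Nolc1, which had the largest increase after Cad in tumors, and for Wdr12, the gene that fell, in lower case because neither holds CACGTG.
Nolc1, chr19:46075747-46075846, plus strand: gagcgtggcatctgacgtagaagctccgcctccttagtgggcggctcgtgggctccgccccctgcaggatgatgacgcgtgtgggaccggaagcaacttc
Wdr12, chr1:60098501-60098600, minus strand: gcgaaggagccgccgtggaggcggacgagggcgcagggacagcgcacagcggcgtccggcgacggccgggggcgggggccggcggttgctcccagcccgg
The 33 genes lie on 18 chromosomes.

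Genes of RNA polymerase I transcription rose in 3 of 3 cases. Polr1a encodes the largest catalytic subunit of the polymerase. Its signals were 80.2, 85 and 88.6 in the normal arrays, 146, 254 and 204 in tumors and 149, 158 and 216 in resistant tumors. Every tumor array lay above the normal ones, and the increase was 1.21 ± 0.21 on the log2 scale in tumors (± SE over 3 arrays in each group, limma adjusted p = 0.0015) and 1.03 ± 0.21 in resistant tumors (limma adjusted p = 0.00382). Polr1b, the second largest subunit, had signals of 69.1, 103 and 99 in normal thymus, 209, 236 and 187 in tumors and 228, 187 and 186 in resistant tumors. The lowest of its normal arrays was normal thymus 1, and the change was 1.23 ± 0.18 in tumors (limma adjusted p = 5.19e-04) and 1.16 ± 0.18 in resistant tumors. Within the arrays without spike-ins Polr1b changed by 1.60 in tumors, and within those with spike-ins by 1.05. Mybbp1a, a nucleolar protein that binds MYB and takes part in polymerase I transcription and precursor processing, had signals of 379, 467 and 475 in normal thymus, 757, 835 and 824 in tumors and 797, 878 and 892 in resistant tumors. Its groups did not overlap either, with changes of 0.88 ± 0.11 and 0.96 ± 0.11.

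The genes for 4 abundant nucleolar proteins all rose, by amounts from 0.35 to 1.40 in tumors. Nolc1 encodes a phosphoprotein that shuttles between nucleolus and cytoplasm and binds snoRNPs. The Nolc1 signals were 220.4, 229 and 250.1 in normal thymus, 515, 713 and 635 in tumors and 640.3, 644 and 707 in resistant tumors. This was a 2.64-fold increase in tumors (1.40 ± 0.13 on the log2 scale, limma adjusted p = 3.33e-05) and 2.85-fold in resistant tumors (limma adjusted p = 2.18e-05), and 3 of its 3 probe sets rose. Gnl3, nucleostemin, a GTP-binding protein of growing cells, went from 325, 365 and 345 to 560.1, 756 and 636 in tumors and 715, 581 and 697 in resistant tumors, changes of 0.91 ± 0.13 and 0.94 ± 0.13. Ncl, nucleolin, which binds the ribosomal RNA precursor, rose by 0.50 ± 0.08 and 0.52 ± 0.08. Its signals lay within 1951 to 1985 in the normal arrays and within 2544 to 2949 in the other arrays. Its other probe sets above background, at 0.69 ± 0.24, 0.36 ± 0.29 and 0.34 ± 0.32 in tumors, were not called over all probe sets. Of these only the first was called in resistant tumors, at 0.97 ± 0.24 (limma adjusted p = 0.0258).

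Npm1, nucleophosmin, a histone and ribosomal protein chaperone, had the smallest increase of the 29. Its signals were 2693, 2438 and 2267 in normal thymus, 3376, 3005 and 3032 in tumors and 3626, 3864 and 2912 in resistant tumors, and the groups did not overlap. The change was 0.35 ± 0.12 in tumors (limma adjusted p = 0.0365) and 0.48 ± 0.12 in resistant tumors (limma adjusted p = 0.00828). The call in tumors was lost without normal thymus 2 or 3 or without any 1 of the tumor arrays (adjusted p 0.0639 to 0.131). It was also lost with quantile normalization, without the filter or without the intensity trend (adjusted p 0.0804 to 0.0898). Over all probe sets, neither probe set of Npm1 was called in tumors (limma adjusted p = 0.112 and 0.122). In resistant tumors only the brighter one was called (limma adjusted p = 0.0345).

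Genes for proteins of the box C/D snoRNPs, which guide methylation of the RNA, rose together in 3 of 3 cases. Fbl, fibrillarin, the methyltransferase, had signals of 781, 988 and 1034 in normal thymus, 1541, 2093 and 2068 in tumors and 1648, 1878 and 2001 in resistant tumors. Normal thymus 1 and tumor 1 were the lowest of their groups and no tumor array reached down to the normal ones, with changes of 1.02 ± 0.15 (limma adjusted p = 5.56e-04) and 0.99 ± 0.15 (limma adjusted p = 6.95e-04). Nop56, a core protein, had 581, 541 and 608 in normal thymus against 1095, 1290.5 and 1179.8 in tumors and 1173, 1328 and 1317 in resistant tumors. It changed by 1.04 ± 0.10 and 1.14 ± 0.10, and its groups did not overlap. Its second probe set gave 0.52 ± 0.21 in tumors, which was not called over all probe sets (limma adjusted p = 0.15). Nop58, the related core protein, had signals of 272, 356 and 354 in normal thymus, 611, 479 and 586 in tumors and 662, 609 and 431 in resistant tumors. Its resistant tumors spread from 431 to 662, and the change was 0.78 ± 0.18 in tumors and 0.78 ± 0.18 in resistant tumors. In resistant tumors the Nop58 change was 1.22 within the arrays without spike-ins and 0.28 within those with them.

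Of the 4 genes for proteins of the box H/ACA snoRNPs, which guide pseudouridylation, 3 rose and Nop10 was not called. Nhp2 had signals of 573, 610.0 and 709 in normal thymus, 981, 1374 and 1251 in tumors and 1200.2, 1269 and 1398 in resistant tumors. All 6 tumor arrays exceeded the normal arrays, and the change was 0.92 ± 0.14 (limma adjusted p = 6.25e-04) in tumors and 1.03 ± 0.14 in resistant tumors. Gar1 had 465, 437 and 459.5 in normal thymus, 705, 708 and 686 in tumors and 739, 819.8 and 782 in resistant tumors. These groups were narrow, with changes of 0.62 ± 0.09 (limma adjusted p = 3.94e-04) and 0.78 ± 0.09 (limma adjusted p = 1.01e-04). Dkc1, dyskerin, the pseudouridine synthase, lies on the X chromosome, the chromosome that XIST silences. Its brightest probe set rose by 0.59 ± 0.13 in tumors and 0.49 ± 0.13 in resistant tumors, and its other 2 probe sets, at 0.48 ± 0.31 and 0.22 ± 0.23 in tumors, were not called over all probe sets. Averaged over its probe sets, Dkc1 was not called in tumors (limma adjusted p = 0.0966).

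Nop10, the smallest protein of this complex, had signals of 1514, 1621 and 1844 in normal thymus, 1500.1, 2143 and 2013 in tumors and 1789, 1921 and 2045 in resistant tumors. Its tumor groups overlapped with the normal arrays, and the values were 0.17 ± 0.14 (limma adjusted p = 0.357) and 0.21 ± 0.14 (limma adjusted p = 0.25). Without tumor 1, the lowest array, the value in tumors was 0.33 (adjusted p = 0.0358). In a model with a term for the spike-in sets the value in resistant tumors passed the test at 0.30 (adjusted p = 0.0174). The second probe set of Nop10 gave 0.18 ± 0.09 in tumors, not called over all probe sets (limma adjusted p = 0.268). In resistant tumors it gave 0.32 ± 0.09 and was called (limma adjusted p = 0.0468). Where that probe set stood for the gene, Nop10 passed in resistant tumors (limma adjusted p = 0.0206). The mean over probe sets passed there too (0.27, limma adjusted p = 0.0467). A difference between genes on 1 array does not depend on how that array was scaled. Relative to the mean of Dkc1, Gar1 and Nhp2, and set to 0 at the mean of the normal arrays, Nop10 stood at -0.06, -0.02 and 0.08 on the normal arrays, at -0.78, -0.48 and -0.37 in tumors and at -0.66, -0.54 and -0.47 in resistant tumors. Nop10 thus moved less than its partners on all 6 tumor arrays; this combination was chosen after its values were seen and was not tested.

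Among the 6 genes of small-subunit assembly, 5 rose and Wdr75 was not called. Rrp9, a protein of the U3 snoRNP, had signals of 77.7, 105 and 131 in normal thymus, 179, 269 and 218 in tumors and 174, 207 and 231 in resistant tumors. The normal arrays varied widely but stayed below the others, and the change was 1.10 ± 0.22 (limma adjusted p = 0.00298) and 0.99 ± 0.22 (limma adjusted p = 0.00533). Rrp12, which takes part in the export of both subunits, had 36.5, 33.2 and 34.4 in normal thymus, 58.5, 75.6 and 66.2 in tumors and 71.3, 55.1 and 85.9 in resistant tumors, changes of 0.94 ± 0.20 and 1.0 ± 0.20. Tsr1, a late assembly factor, changed by 0.82 ± 0.11 and 0.91 ± 0.11, and Utp20, a scaffold of the early precursor, by 0.48 ± 0.12 and 0.62 ± 0.12. Wdr43 rose by 0.91 ± 0.24 and 1.05 ± 0.24, with a wide range of signals from 431 to 748 over the tumor and resistant tumor arrays. Its dimmer probe set rose by 0.50 ± 0.12 and 0.55 ± 0.12, both called over all probe sets. Wdr75, which like Wdr43 belongs to a subcomplex that acts on the early precursor, had signals of 148, 166 and 164 in normal thymus, 178, 174 and 154 in tumors and 219.6, 174 and 157 in resistant tumors. These overlapped, and the values of 0.08 ± 0.15 (limma adjusted p = 0.704) and 0.19 ± 0.15 (limma adjusted p = 0.331) did not pass the test. The other probe set of Wdr75 gave 0.45 ± 0.14 in tumors (limma adjusted p = 0.0679 over all probe sets) and, where it stood for the gene, passed in resistant tumors (0.47, adjusted p = 0.0439).

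The 10 genes of large-subunit assembly included the only gene of the 33 that fell. Bop1, Pes1 and Wdr12 encode the 3 proteins of the PeBoW complex, which is needed to process the RNA of the large subunit. Bop1 had signals of 248, 243 and 248 in normal thymus, 451, 643 and 556 in tumors and 418, 646 and 742 in resistant tumors. It rose by 1.14 ± 0.21 (limma adjusted p = 0.0017) and 1.25 ± 0.21 (limma adjusted p = 0.00103), with a spread among the tumors far wider than among the normal arrays. Pes1 had 174, 187 and 195 in normal thymus, 359, 475 and 401 in tumors and 296, 305 and 413 in resistant tumors. It rose by 1.14 ± 0.16 (limma adjusted p = 3.44e-04) and 0.85 ± 0.16 (limma adjusted p = 0.00194). The second probe sets of Bop1 and Pes1, at 0.32 ± 0.14 and 0.60 ± 0.32 in tumors, were not called there over all probe sets. In resistant tumors that of Bop1 was called at 0.67 ± 0.14, and that of Pes1, at 1.02 ± 0.32, was not.

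Wdr12, the gene for the third protein of this complex, moved the other way. Its signals were 360.5, 391 and 390.4 in normal thymus, 238, 279 and 242 in tumors and 278, 251 and 275 in resistant tumors, and every tumor array lay below every normal array. The change was -0.59 ± 0.11 in tumors (limma adjusted p = 0.00203) and -0.51 ± 0.11 in resistant tumors (limma adjusted p = 0.00481). Taken separately, the arrays lacking spike-ins gave -0.60 in tumors and those holding them gave -0.59. A second probe set above background gave -1.0 ± 0.32 in tumors and -0.57 ± 0.32 in resistant tumors, not called over all probe sets (limma adjusted p = 0.0702 and 0.302). With equal array medians the calls of Wdr12 were lost (-0.41, adjusted p = 0.505 in tumors, and -0.57, adjusted p = 0.359 in resistant tumors), and they were kept when the model also held the spike-in sets (adjusted p = 0.0113 and 0.0444). Relative to the mean of Bop1 and Pes1 on the same array, and set to 0 at the mean of the normal arrays, Wdr12 stood at -0.04, 0.04 and 0.00 on the normal arrays. In tumors this difference was -1.59, -1.82 and -1.80, and in resistant tumors -1.17, -1.66 and -1.84. No scaling of an array changes these differences, which were chosen after the values were seen and not tested.

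**Figure D2:**
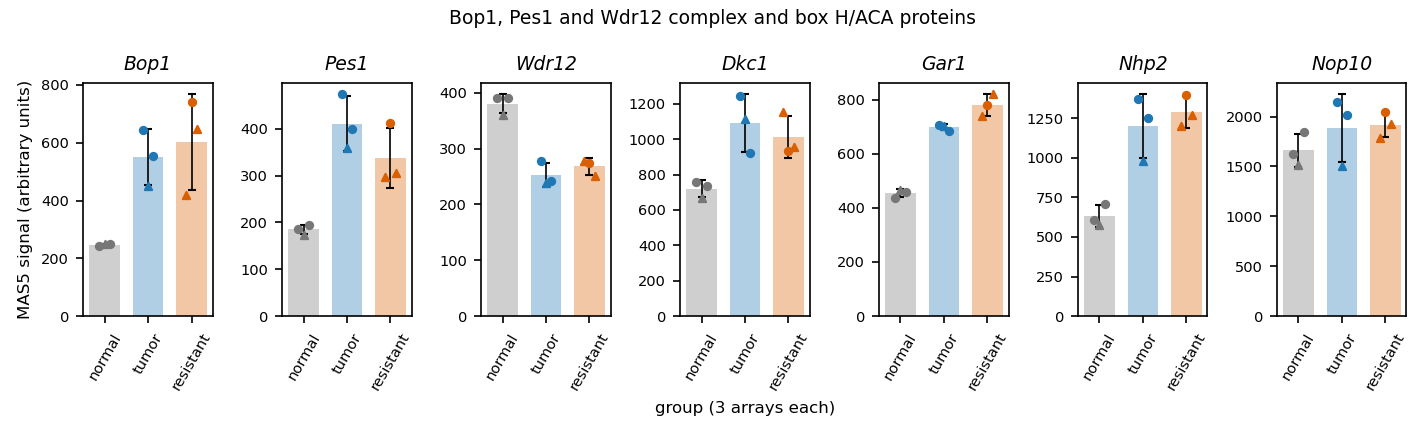
MAS5 signals, in arbitrary units on linear axes starting at 0, of Bop1, Pes1 and Wdr12 and of the box H/ACA genes Dkc1, Gar1, Nhp2 and Nop10. Bars give the mean of 3 arrays per group, error bars the SD, and points the arrays, with triangles for those without spike-in signal. Wdr12 falls where Bop1 and Pes1 rise, and only Nop10 of these 7 genes overlaps between tumors and normal thymus.

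Of the other large-subunit factors 6 rose and Nip7 was not called. Nop16 rose by 1.11 ± 0.13 in tumors and 1.28 ± 0.13 in resistant tumors, Nop2, an RNA methyltransferase, by 0.84 ± 0.14 and 1.02 ± 0.14, and Rrs1, which helps to load the 5S particle, by 0.68 ± 0.12 and 0.86 ± 0.12. Ebna1bp2 rose by 0.58 ± 0.10 and 0.77 ± 0.10, but averaged over its probe sets it was not called in either comparison (adjusted p = 0.268 and 0.0726). The helicase gene Ddx21 rose by 0.90 ± 0.24 and 1.25 ± 0.24, and its dimmer probe set by 0.60 ± 0.13 and 0.51 ± 0.13, both called over all probe sets. Ddx18, another helicase gene, rose by only 0.35 ± 0.11 in tumors (limma adjusted p = 0.0289), a call that was lost without any 1 of the normal arrays or without tumor 2 or 3 (adjusted p 0.058 to 0.0888), and by 0.53 ± 0.11 in resistant tumors. Nip7, a late factor, had signals of 198, 262 and 255 in normal thymus, 222, 287 and 273 in tumors and 303, 255 and 301 in resistant tumors. These overlapped, with values of 0.13 ± 0.15 (limma adjusted p = 0.525) and 0.27 ± 0.15 (limma adjusted p = 0.183). In a model with a term for the spike-in sets Nip7 passed in resistant tumors (0.37, adjusted p = 0.0116). The probe sets of Nip7 disagreed in size: the dimmer one, with mean signal 69.7, rose by 1.01 ± 0.18 in tumors (limma adjusted p = 0.00631 over all probe sets), and the mean of both passed in both comparisons (0.57, adjusted p = 0.00449, and 0.65, adjusted p = 0.00238).

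All 3 measured genes for enzymes of growth metabolism rose, and Cad rose most of all 33 genes. Cad encodes the enzyme that starts pyrimidine synthesis. Its signals were 145, 170.3 and 172 in normal thymus, 488, 629.7 and 529 in tumors and 463, 524 and 625 in resistant tumors. Every tumor array lay above every normal array, a 3.37-fold increase in tumors (1.75 ± 0.15, limma adjusted p = 1.79e-05) and 3.29-fold in resistant tumors (1.72 ± 0.15, limma adjusted p = 2.09e-05). Srm, spermidine synthase, had signals of 400.5, 416 and 444 in normal thymus, 717, 915 and 866 in tumors and 782, 867 and 921 in resistant tumors. Its tumor arrays also lay above all normal ones, with changes of 0.98 ± 0.12 and 1.03 ± 0.12. Odc1, ornithine decarboxylase, which makes putrescine for the same pathway, had 702, 786 and 835 in normal thymus, 1016, 1449.7 and 1305 in tumors and 1364, 1304 and 1432 in resistant tumors. It changed by 0.69 ± 0.13 (limma adjusted p = 0.00265) and 0.82 ± 0.13 (limma adjusted p = 9.74e-04). Of its remaining probe sets, the brighter gave 0.40 ± 0.26 in tumors and was not called over all probe sets. The dimmer gave 1.21 ± 0.17 and was called, and in resistant tumors both were called. Tumor 1 was the lowest tumor array for all 3 enzyme genes.

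**Figure D3:**
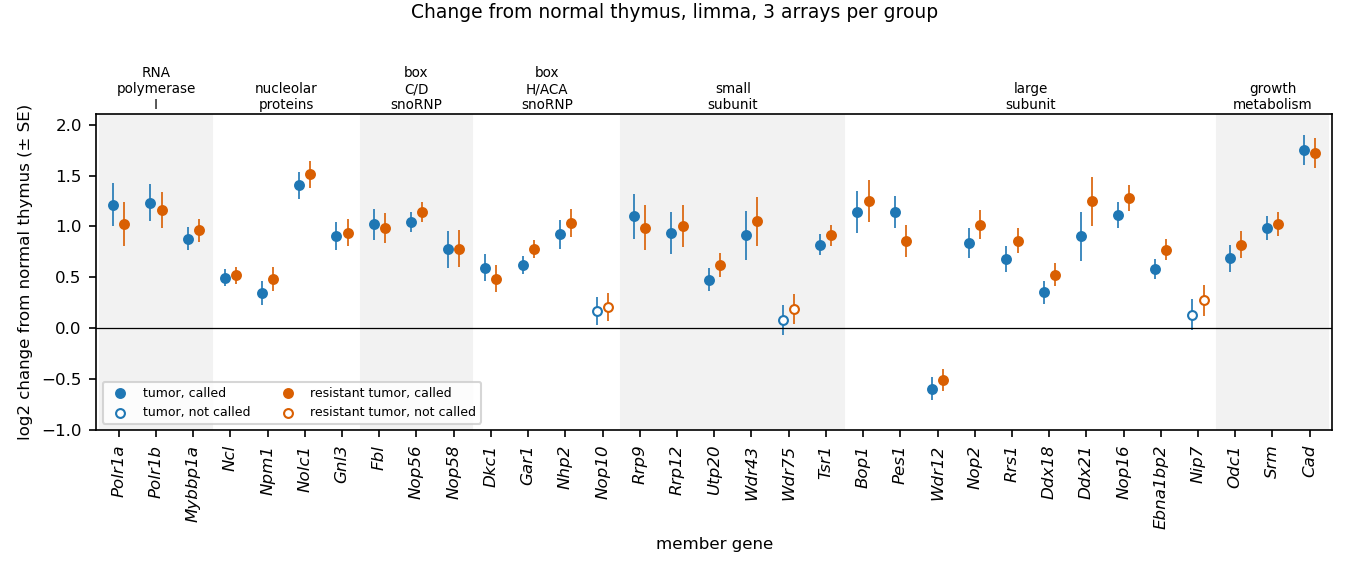
Log2 change from normal thymus, with its standard error from limma, for each of the 33 genes in tumors and in resistant tumors (3 arrays per group); filled points passed an adjusted p of 0.05 and open points did not. Changes run from -0.59 for Wdr12 to 1.75 for Cad in tumors.

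The 70 probe sets were also fitted one by one, with p-values adjusted over all 45037 probe sets that are not controls. Of the 70, 64 passed the filter on low signal. Among these 64, 42 rose and 1 fell in tumors, against 16% higher and 14.1% lower among all 24873 probe sets that passed. In resistant tumors 48 rose and 1 fell, against 15.8% and 14.5%. The 6 that did not pass the filter were not called in either comparison. For 23 genes more than 1 probe set passed, and their signs agreed within the gene for 22 in tumors and for 23 in resistant tumors. The exception was Ebna1bp2, a dim probe set of which stood at -0.36 ± 0.85 in tumors. Some genes are seen only by probe sets whose suffix marks that they can match several transcripts. For some of these probe sets related copies may share the signal. With all such probe sets left out, 27 genes could be tested and 6 could not.

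Resistant tumors were also compared with tumors directly. Of the 33 genes 0 were called by limma at an adjusted p under 0.05, against 0.129% of all genes higher and 0.231% lower. At an unadjusted limma p under 0.05 there were 0 of the 33, against 844 of the 11671 genes tested. The median change of resistant tumors against tumors was 0.10 beside -0.02 over all genes, and with the common shift of equal array medians -0.15 beside -0.26. For 3 genes the groups did not overlap, all higher in resistant tumors, where 4.41% of all genes had such a pattern and 6.01% the opposite one. These were Gar1 (0.16 ± 0.09), Ddx18 (0.18 ± 0.11) and Ebna1bp2 (0.19 ± 0.10). Equal array medians moved these and all other genes by -0.25, which leaves each of the 3 below 0. The extremes were Pes1 at -0.29 ± 0.16 (limma adjusted p = 0.765) and Ddx21 at 0.34 ± 0.24 (limma adjusted p = 0.826). The second probe sets of Pes1 and Ddx21 stood on the other side of 0, at 0.42 ± 0.32 and -0.09 ± 0.13, and were not called. The 95% intervals of all 33 differences lay within 1 and -1 on the log2 scale without equal array medians. They ran from a lowest limit of -0.67 for Polr1a to a highest of 0.88 for Ddx21, so a 2-fold difference was outside each interval. With equal array medians Pes1 stood at -0.54 and Polr1a at -0.44. Whether a 2-fold difference lies outside the intervals under that scaling was not tested.

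Within groups, part of the spread of these genes followed the spike-in sets. Averaged over the groups, 22 of the 33 genes were lower and 11 higher in arrays without spike-in signal, with a median difference of -0.10 beside -0.04 over all genes tested. The difference exceeded 0.3 either way for 5 genes. Wdr43 (0.58) and Ddx21 (0.52) were higher in arrays without spike-in signal. Ddx21 had signals of 194, 169 and 159.9 in normal thymus, 463, 286 and 258 in tumors and 522, 419 and 319 in resistant tumors, and tumor 1 and resistant tumors 1 and 2 were the brightest. Rrp9 (-0.44), Polr1a (-0.42) and Fbl (-0.33) were lower there. The change from normal thymus, taken within each set, differed between the sets by more than 0.4 for 6 of the 33 genes in tumors. Arrays without and with spike-in signal gave 1.17 and 0.58 for Nop58, 1.60 and 1.05 for Polr1b, and 1.26 and 0.72 for Ddx21. They gave 0.45 and 1.03 for Nop2, 0.87 and 1.39 for Polr1a, and 0.86 and 1.29 for Bop1. In resistant tumors 5 genes differed as much, namely Nop58 (1.22 and 0.28), Polr1b (1.58 and 0.88), Rrp12 (0.78 and 1.34), Bop1 (1.07 and 1.60) and Wdr75 (0.41 and -0.08). Each of these values rests on 1 or 2 arrays per group, and the difference was not tested. Neither the 22 lower and 11 higher genes nor the counts past each limit have a count over all genes beside them. Whether they are particular to the 33 genes was not tested. What the sets stand for was not tested.

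Other genes of the pathway, from lists chosen with earlier results of these data known, are described by counts without a test of the lists, beside the 23.3% of all genes called higher and 19.1% lower in tumors and the 23.1% and 20.2% in resistant tumors. Among other genes of polymerase I transcription 8 of 15 rose and 2 fell in tumors, and 6 rose and 1 fell in resistant tumors. Cd3eap, a polymerase I subunit, rose by 1.48 ± 0.15 and 1.65 ± 0.15, Polr1e by 0.84 ± 0.13 and 0.90 ± 0.13, and Rrn3, the factor that recruits the polymerase, by 0.79 ± 0.19 and 0.94 ± 0.19. Baz2a, a subunit of a complex that silences ribosomal RNA genes, changed by -0.61 ± 0.12 and -0.67 ± 0.12 and is named after its values were seen. Other snoRNP genes rose in 3 of 9 cases in tumors and in 5 of 9 in resistant tumors, among them Ruvbl1, a chaperone of snoRNP assembly, by 0.62 ± 0.12 and 0.62 ± 0.12. Other small-subunit genes rose in 12 of 41 cases (29.3%, near the 23.3% of all genes) and fell in 1 in tumors, and 16 rose and 2 fell in resistant tumors. Rcl1 led with 1.20 ± 0.13 and 1.26 ± 0.13, followed in tumors by Nob1, which makes the last cut of the small-subunit RNA, with 1.10 ± 0.13 and 0.98 ± 0.13. Other large-subunit genes rose in 14 of 49 cases (28.6%, also near that share) and fell in 0 in tumors, and 17 rose and 1 fell in resistant tumors. Rrp1b changed by 1.57 ± 0.14 and 1.51 ± 0.14, and Noc2l by 0.99 ± 0.12 and 1.03 ± 0.12. Genes for subunits and cofactors of the RNA exosome rose in 5 of 13 cases in both comparisons, Exosc5 by 1.04 ± 0.20 and 0.68 ± 0.20. The list medians in tumors were 0.32 for polymerase I, 0.49 for snoRNPs, 0.25 for the small subunit, 0.22 for the large subunit and 0.16 for the exosome, all below the 0.88 of the 33 genes.

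Genes for enzymes next to Odc1, Srm and Cad in polyamine, methionine and pyrimidine metabolism moved both ways. In tumors 7 of 15 rose and 3 fell, and in resistant tumors 8 rose and 3 fell. Ahcy, which clears the product of methyl transfer, rose by 1.54 ± 0.18 and 1.46 ± 0.18, and Uck2, a uridine kinase, by 1.39 ± 0.18 and 1.22 ± 0.18. Mat2b, the regulatory subunit of the enzyme whose catalytic subunit is Mat2a, changed by -0.99 ± 0.19 and -1.05 ± 0.19. Of the genes of MYC and its partners, Myc rose by 1.27 ± 0.12 and 0.98 ± 0.12 and Mxd4, a repressor that shares its partner Max, changed by -1.10 ± 0.15 and -1.46 ± 0.15. In that list 1 of 11 rose and 2 fell in tumors, and 1 rose and 3 fell in resistant tumors.

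DNA replication and mitosis lists were set beside these genes as a view of the dividing cells. Replication genes rose in 11 of 18 cases in tumors and 12 of 18 in resistant tumors, with medians of 0.54 and 0.60. Mitosis genes rose in 1 of 14 cases and fell in 2 in tumors, and 0 rose and 3 fell in resistant tumors, with medians of -0.13 and -0.14. The common shift of equal array medians takes the median in tumors to 0.06, beside 0.24 over all genes. No test compared these lists with the 33 genes.

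**Figure D4:**
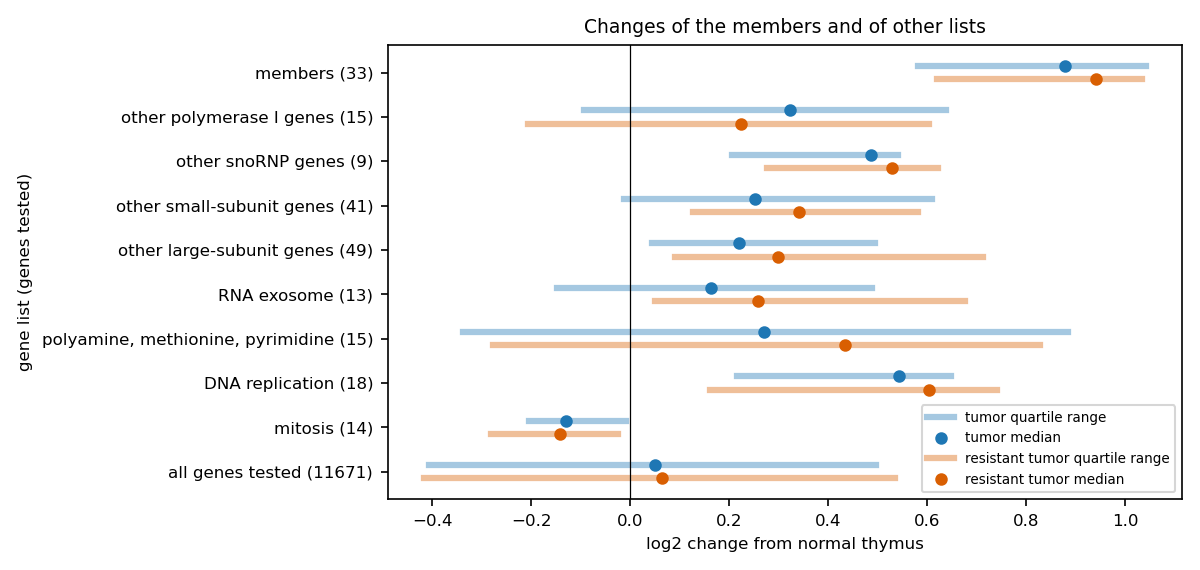
Log2 change from normal thymus in tumors and in resistant tumors for the 33 genes, the lists of other pathway, DNA replication and mitosis genes, and all genes tested; points are medians over genes, thick lines the range between the quartiles, and numbers in brackets the genes tested. The medians of the 33 genes, 0.88 and 0.94, are the largest of these lists; marker lists are not drawn, and those of fibroblasts (1.5 and 1.77) and, in tumors, of endothelium (0.96) were larger. Medians of mitosis genes are below 0, and 0.06 in tumors after the common shift of equal array medians.

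Markers of the cells of a thymus moved at the same time. Of 15 thymocyte markers 10 fell and 1 rose in tumors, and their summed signal was 27362 to 29504 in normal thymus, 17467 to 18567 in tumors and 15995 to 18885 in resistant tumors. The mean log2 signal of the same 15 was 10.52 to 10.64 in normal thymus, 7.39 to 7.66 in tumors and 7.41 to 7.75 in resistant tumors, and the median change was -1.26 in tumors and -1.55 in resistant tumors. The largest decreases in tumors were those of Cd8a (-8.25 ± 0.55), Cd2 (-8.10 ± 0.99), Cd8b1 (-7.97 ± 0.29) and Ccr9 (-7.37 ± 0.59), and the gene that rose was Ptcra (3.01 ± 0.12). The 4 that were not called in tumors were Cd3d (-0.10), Cd3e (0.19), Cd3g (0.24) and Dntt (-0.18). They stood at -0.30, -0.04, 0.10 and -0.11 in resistant tumors and were not called there either. Of the 15 markers, 5, 4 and 5 lay below the array median in tumors 1, 2 and 3, and 0 on each normal array. Where a marker ends near background, the size of its decrease depends on background and on the floor of 1. The mean log2 signal of the list depends on them too. Of 9 markers of cortical thymic epithelium 9 fell in tumors and 8 in resistant tumors, with summed signals of 11530.0 to 12714, 722 to 1253 and 1229 to 1479. In tumors 6 of 11 fibroblast markers rose and 1 fell, with sums of 4590.5 to 5277, 5408 to 9395 and 6458 to 11160.2. Thy1 is counted among both the thymocyte and the fibroblast markers. In tumors 6 of 9 endothelial markers rose and 1 fell, with sums of 485 to 489, 662 to 945 and 718 to 1050.5. No deposited value is 0. In tumors B cell markers fell in 5 of 6 cases, dendritic cell markers in 6 of 7, medullary epithelial markers in 4 of 6 and macrophage markers in 1 of 9. In resistant tumors 10 thymocyte markers fell and 1 rose, 7 fibroblast markers rose and 2 fell, and 6 endothelial markers rose and 1 fell. There 2 B cell, 4 dendritic, 5 medullary epithelial and 1 macrophage markers fell, and 1 medullary epithelial marker rose. The part of these cells in the changes of the ribosome biogenesis genes was not tested.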

How the data were processed

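RNA of 9 mouse samples was measured on Affymetrix arrays. The table deposited by the authors holds a linear intensity for each probe set on each array, for which the submitters' processing notes name MAS5. No source used here gives the version, scaling target or detection calls of MAS5. Leaving out the top and bottom 2% of values, the array means were 100.03 to 100.033. The members, gene lists, tests and alternatives were chosen with earlier results of these data known.

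A floor of 1 was applied before taking log2, without further normalization. A probe set with 1 symbol was kept when at least 3 arrays reached their own median (20917 of 34945), and each gene was represented by its brightest such probe set (mean log2). Probe sets with several symbols (932), unlisted ones (9160) and 64 control rows stayed out. A mean per group was fitted in limma 3.58.1 (R 4.3.3) with an intensity trend, 6 residual degrees of freedom and Benjamini-Hochberg adjustment over 11671 genes; an adjusted p under 0.05 was called. The fit was run on simulated data with independent noise and no spike-in sets, which checks the code and not the error rates on these arrays. Members could all be named; signals on all arrays are given for the 2 largest and the smallest change of each role group with at least 4 listed genes, for all genes of smaller groups, and for those lower or not called. Other lists name at most 4 called genes.

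The control rows of tumor 1 stood in byte order of their names. After sorting, their correlation with the median of the other arrays was 0.719, and -0.259 as deposited. Same-numbered arrays of different groups deviated together where both were in 1 spike-in set (r 0.371 to 0.654) and not otherwise (-0.337 and -0.301), so the numbers were not taken as pairs. Sequences came from RefSeq tables of GRCm38.p6. Figures used matplotlib 3.10.9 under Python 3.11.15.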

Additional observations from a re-analysis of the deposited data

How the results depend on the processing

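The alternatives were quantile normalization, equal array medians, 50 added before log2, no filter, a filter at the 75th percentile, the mean over probe sets, plain _at probe sets, no intensity trend, a term for the spike-in sets or each set alone, the replicate number as a block, each array left out in turn and, chosen after seeing the data, equal medians with the spike-in block. The 30 ribosome biogenesis genes called against normal thymus kept their direction of change under each of these that tested them; plain _at probe sets left out 6 of the 33 and the stricter filter left out Rrp12. The count of genes called higher fell from 29 to 9 in tumors and to 5 in resistant tumors with equal array medians, and that of genes called lower from 1 to 0 in both. With the replicate block 29 rose and 1 fell in both comparisons, as in the fit without it. Leaving out 1 array gave 27 to 29 higher in tumors and 29 in resistant tumors.

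The median change of 0.88 in tumors was 1.06 with equal medians, with or without the spike-in block, 0.74 with 50 added, 0.78 with the mean over probe sets and 0.78 within the arrays without spike-ins. Without 1 array it was 0.82 to 0.88. The median of 0.94 in resistant tumors was 0.78 with 50 added and 1.1 with equal medians and the block, and 0.86 to 0.97 without 1 array. That of resistant tumors against tumors, 0.10, was -0.15 with equal medians, by the same shift for all genes, and 0.03 to 0.15 without 1 array. Over all genes, calls fell with equal medians from 4943 to 2287 in tumors and from 5049 to 2034 in resistant tumors. The share of calls that were higher went from 53.4% to 43.2% in resistant tumors with equal medians, and with the block added the calls were 4794 higher and 2184 lower in tumors. For resistant tumors against tumors the 42 calls became 18 with equal medians, 22 without a filter, 23 with the stricter filter, 27 with the mean over probe sets, 143 with the spike-in block, 92 with the replicate block, 137 with equal medians and the spike-in block, and 8 to 70 without 1 array. None of these calls was a ribosome biogenesis gene.

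The sign of values that had not passed the test turned for Nop10 in tumors within the arrays without spike-ins (-0.013), for Wdr75 within the arrays with them (-0.015 in tumors and -0.078 in resistant tumors), and, for resistant tumors against tumors, with equal medians, which move every gene by -0.25 there, for Gar1 (-0.090), Ddx18 (-0.072) and Ebna1bp2 (-0.055) and with the mean over probe sets for Pes1 (0.066). The causes of the others were not tested.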
